A study of Mus musculus with 9 samples.

Results

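The 4 genes described here are Ckm, Ckb, Ckmt2 and Ak1, the creatine kinases and the cytosolic adenylate kinase of muscle, in gastrocnemius, a calf muscle of the mouse. They were chosen by name, and every probe set annotated to them was taken, which gave 7 probe sets: 2 for Ckm, 1 for Ckb, 3 for Ckmt2 and 1 for Ak1, numbered below from the brightest of each gene. They are 4 of the 8251 genes measured by a probe set with 1 gene symbol. A total of 5 of the 7 probe sets, with all 4 genes among them, passed the filter on dim probe sets and were tested. RNA of 9 mice was hybridised, each on its own Affymetrix U74Av2 oligonucleotide array, in a study that crossed mice with a full-length human dystrophin gene (hDMD) into mice lacking mouse dystrophin (mdx) and into mice lacking dystrophin and utrophin (mdx x utrn-/-).

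The single mdx x utrn-/- mouse was a male of 5 weeks. The 2 mdx mice were males of 15 weeks (mdx 1) and 13 weeks (mdx 2). The single hDMD x mdx x utrn-/- mouse was a male of 9 weeks. The 2 hDMD x mdx mice were males of 24 weeks (hDMD x mdx 1) and 10 weeks (hDMD x mdx 2), and the single hDMD mouse was a male of 11 weeks. The 2 wild-type mice, of C57Bl/DBA2/129OLA-Ev background, were a female (wild-type 1) and a male (wild-type 2), both of 7 weeks. The labels name no strain for the other genotypes and do not say which promoter drives the human gene. Full-length dystrophin, mouse or human, was thus carried by 6 mice and absent from 3, the mdx and mdx x utrn-/- mice. Age differed between genotypes, and its part cannot be told apart from that of genotype in any comparison with wild-type.

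Creatine kinases move a phosphate group between ATP and creatine, and phosphocreatine is the reserve from which contracting muscle restores ATP. The M form (Ckm) is bound in part to the M line of the sarcomere and makes up most of the activity of mature muscle, the B form (Ckb) is the form of brain, smooth muscle and immature muscle, and the sarcomeric mitochondrial form (Ckmt2) sits between the mitochondrial membranes, where it charges creatine. Adenylate kinase 1 (Ak1) makes ATP and AMP from ADP and so draws on the last phosphate of the spent nucleotide. Creatine kinase that leaks from damaged fibres into blood is the classical serum marker of dystrophin deficiency, and developing muscle switches from the B to the M form as it matures.

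Levels below are log2(intensity + 16) after quantile normalisation across the arrays, with a floor of 4, and differences are between such levels, so that they understate changes of dim probe sets. On 9 hybridisation spike-in probe sets, wild-type 1, hDMD x mdx 1 and mdx 2 were brighter than the other 6 arrays, with a ratio of medians of 6.18. Each genotype with 2 mice therefore holds 1 bright and 1 dim array, and every genotype with 1 mouse is on a dim array. Array medians of the deposited intensities lay between 1.47 and 45.6. The 7 skeletal muscle markers, among them Acta1, Pvalb and Myh4, were above the floor on every array, though they do not tell gastrocnemius from other muscles. Their summed normalised intensity was 17642 to 18862 without dystrophin and 17045 to 19039 with it. Quantile normalisation gives the top ranks of every array the same values, so near-equal sums of such bright genes do not show equal muscle content. In whole muscle, fewer cells of a type and less RNA per cell cannot be told apart.

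No probe set of the 4 genes passed the test in any of the 10 comparisons (limma, adjusted p under 0.05 over 7453 probe sets), whichever of the alternatives was used. Between arrays without and with dystrophin, 0 of 5 passed and 1 had an unadjusted p under 0.05, where 0.121% of all probe sets passed and 5.58% had such a p. In each of the other 9 comparisons 0 of 5 passed, and 0% of all probe sets did. Ckb alone had an unadjusted p under 0.05 in hDMD x mdx against mdx, where 2.86% of all probe sets had one, in hDMD x mdx against wild-type (0.832%) and in the human gene comparison (5.46%). No member had such a p in mdx x utrn-/- against wild-type (3.49% of all probe sets), mdx against wild-type (1.74%), hDMD x mdx x utrn-/- against wild-type (7.04%), hDMD against wild-type (1.78%), with utrophin loss (5.92%) or in the difference of human gene effects (3.82%). An adjusted p above the threshold does not show that levels were equal, so the 95% interval of each difference is given.

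**Figure D1:**
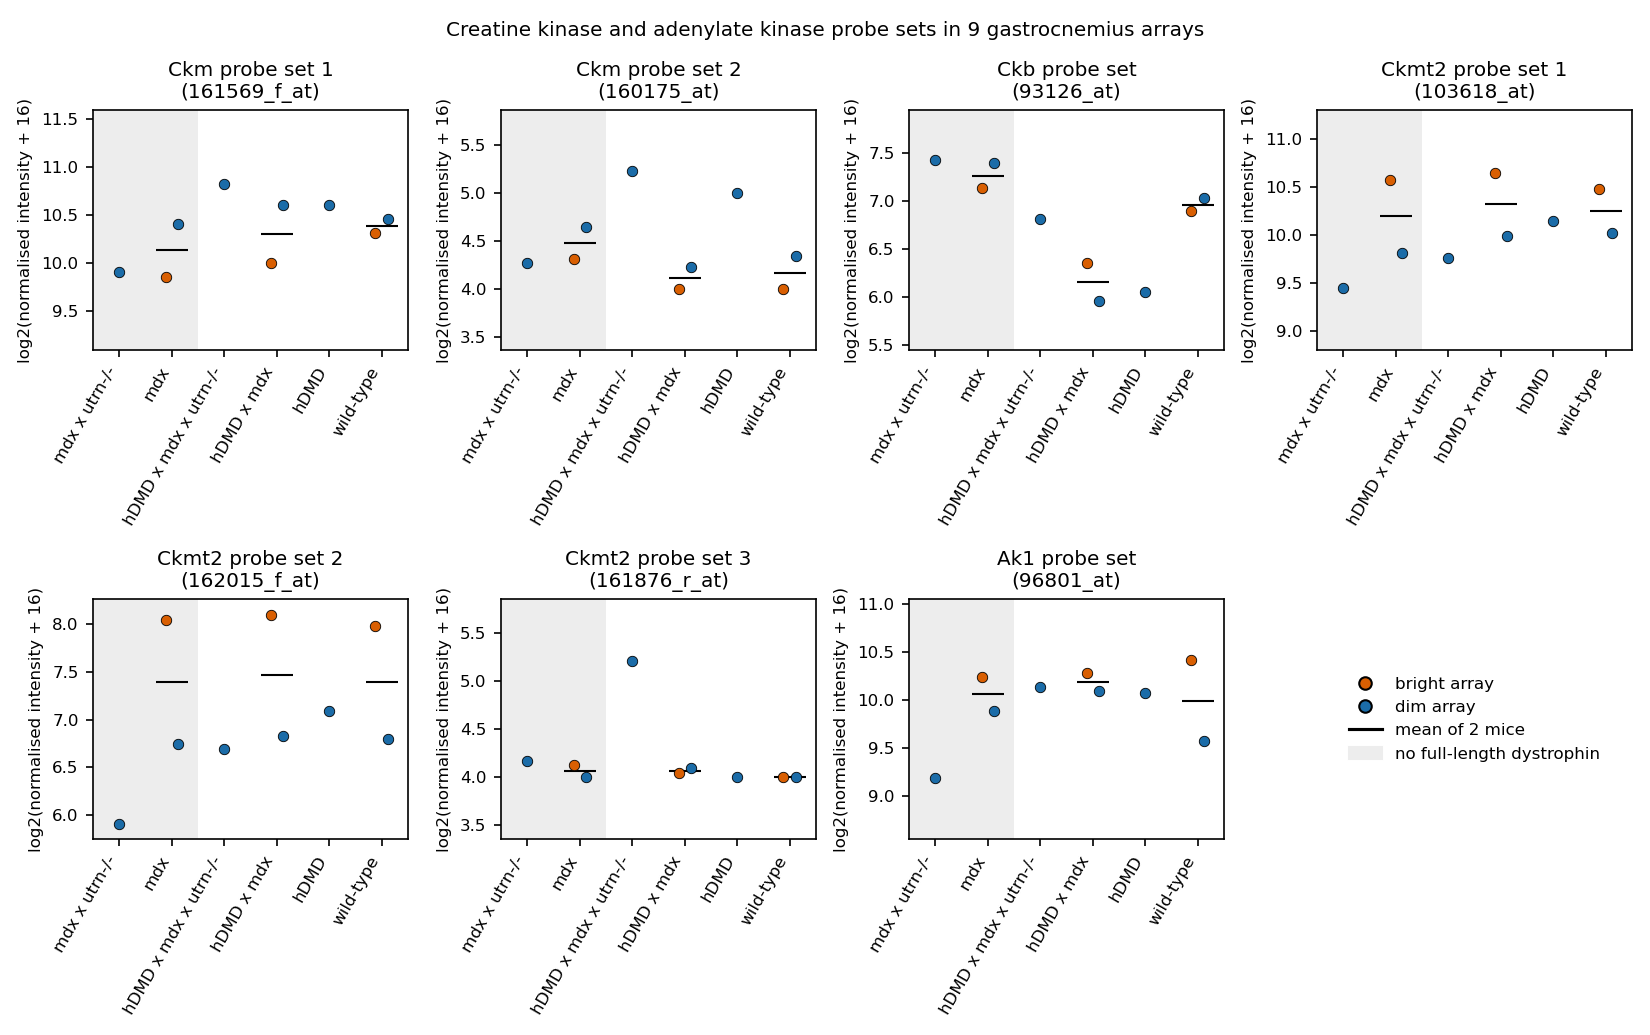
Level of the 7 probe sets on each of the 9 arrays, as log2(normalised intensity + 16), by genotype, with bright and dim arrays in separate colours and the mean of the genotypes with 2 mice as a bar. Each panel spans the same number of log2 units. Ckb was higher on the 3 arrays without dystrophin than on the 6 with it, while Ckmt2 probe sets 1 and 2 and Ak1 were highest on the bright arrays and lowest in mdx x utrn-/-.

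The start-site windows of the 3 creatine kinase genes are shown so that the sequence at the start of the B form can be read beside that of the M and mitochondrial forms. Each runs from 250 bases before to 50 bases after the transcription start site, from RefSeq on GRCm38.p6, and is written 5′ to 3′ on the gene's strand. Capitals mark every E-box, the CANNTG that myogenic bHLH factors such as MyoD bind, and every TATA motif of the letters TATAAA. The E-box search covers both strands, and the TATA motif was searched on the gene's strand only. The Ckm window is chr7:19410844-19411143 on the plus strand, that of Ckb is chr12:111672289-111672588 on the minus strand, and that of Ckmt2 is chr13:91876836-91877135 on the minus strand.
Ckm: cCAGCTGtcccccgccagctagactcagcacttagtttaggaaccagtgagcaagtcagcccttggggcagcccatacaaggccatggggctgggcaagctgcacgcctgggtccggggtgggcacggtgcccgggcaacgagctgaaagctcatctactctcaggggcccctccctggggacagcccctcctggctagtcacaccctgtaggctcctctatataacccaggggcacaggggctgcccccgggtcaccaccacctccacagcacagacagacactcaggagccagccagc
Ckb: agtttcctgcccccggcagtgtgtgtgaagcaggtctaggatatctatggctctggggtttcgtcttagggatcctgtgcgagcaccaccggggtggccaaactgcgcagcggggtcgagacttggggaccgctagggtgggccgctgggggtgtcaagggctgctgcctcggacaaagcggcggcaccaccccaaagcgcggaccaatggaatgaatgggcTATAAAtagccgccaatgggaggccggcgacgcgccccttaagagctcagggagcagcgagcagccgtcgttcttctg
Ckmt2: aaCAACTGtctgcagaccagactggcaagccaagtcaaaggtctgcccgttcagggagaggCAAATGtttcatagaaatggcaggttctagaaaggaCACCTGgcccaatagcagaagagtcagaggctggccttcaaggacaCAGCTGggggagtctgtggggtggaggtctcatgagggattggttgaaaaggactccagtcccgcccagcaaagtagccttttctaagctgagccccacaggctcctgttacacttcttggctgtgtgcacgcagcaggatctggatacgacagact

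The Ckm gene (Entrez 12715) has 1 E-box in its window, which starts at position -249, counted back from the base before the start site. Its window has no TATAAA but does hold the similar letters tatataa, a variant that the search did not cover. The absence of TATAAA is thus not the absence of a TATA box. In the Ckb gene (Entrez 12709) the window holds no E-box and 1 TATA motif at position -28, which lies inside a match to the MEF2 motif at position -29. The Ckmt2 gene (Entrez 76722) has 4 E-boxes, at positions -248, -189, -153 and -107, and no TATA motif. Of 32851 mouse windows of the same length, 72.3% hold an E-box, 8.3% a TATA motif and 3.2% a MEF2 match. The TATA motif was counted on the gene's strand only, the others on either strand. Ak1 (Entrez 11636) has 4 annotated windows, with 3, 1, 2 and 1 E-boxes, and the second of them also holds a TATA motif inside a MEF2 match, which start at positions 22 and 21, counted forward from the start site. Such matches describe letters and are not sites shown to be bound, and enhancers outside the windows were not searched.

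Ckb, the B form, was the only one of the 4 genes whose arrays without dystrophin all lay above those with it. Its probe set read 7.43 in mdx x utrn-/- and 7.40 and 7.13 in mdx 1 and 2. Among mice with dystrophin it read 6.81 in hDMD x mdx x utrn-/-, 6.35 and 5.96 in hDMD x mdx 1 and 2, 6.05 in hDMD, and 6.89 and 7.03 in wild-type 1 and 2. The groups did not overlap, though the lowest mdx array and the highest wild-type array lay close together, and the lowest levels were those of hDMD and hDMD x mdx. The deposited intensities behind these levels ran on the dim arrays from 9.53 in hDMD x mdx 2 to 38.9 in mdx 1, and on the bright ones from 166 in wild-type 1 to 291 in hDMD x mdx 1.

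Ckb averaged 7.32 ± 0.16 without dystrophin (SD, n = 3) and 6.52 ± 0.46 with it (SD, n = 6), a difference of 0.81 ± 0.28 (SE) or 1.75-fold. The 95% interval was 0.19 to 1.42, and limma's adjusted p was 0.732 (unadjusted 0.0146). Of all probe sets tested, 1.53% were higher without overlap in the same way. The difference was 0.51 within the bright arrays and 0.95 within the dim ones. With the human gene as a covariate it was 0.36 ± 0.31, a smaller value that compares mdx and mdx x utrn-/- mice with the wild-type mice alone.

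The single genotypes placed Ckb in the order mdx x utrn-/-, mdx, wild-type, hDMD x mdx x utrn-/-, hDMD x mdx and hDMD from high to low. Against a within-genotype SD of 0.20, pooled over the 3 genotypes with 2 mice, the gap of 0.65 between hDMD x mdx x utrn-/- and hDMD x mdx was 3.28 times as large and that of 0.30 between mdx and wild-type 1.53 times. This SD has only 3 residual degrees of freedom. Each of the 3 pairs holds 1 bright and 1 dim array, so the SD includes any shift between them. For Ckb that shift was 0.01 on average. The gap of 0.65 rests on the single hDMD x mdx x utrn-/- mouse and was not tested. The other 3 neighbouring gaps, of 0.10 to 0.17, were smaller than this SD. Between mdx and wild-type the difference was 0.30 ± 0.34 with an interval of -0.49 to 1.10 (limma adjusted p 0.9997). The 2 arrays of each did not overlap, as was so for 11.2% of all probe sets in that direction.

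Of the 10 comparisons, hDMD x mdx against mdx had the widest Ckb difference. Levels were 6.35 and 5.96 in hDMD x mdx against 7.40 and 7.13 in mdx, a difference of -1.11 ± 0.34 with an interval of -1.91 to -0.31 (limma adjusted p 0.9998, unadjusted 0.0133). The lack of overlap was shared with 13.0% of all probe sets in that direction. Averaged over both utrophin backgrounds, human gene carriers stood at -0.95 ± 0.28 relative to non-carriers, with an interval of -1.61 to -0.28 and a limma adjusted p of 0.648. All 3 carriers lay below all 3 non-carriers, which held for 5.37% of all probe sets.

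Ckb in mice with the human gene was also below wild-type. The difference was -0.81 ± 0.34 for hDMD x mdx (interval -1.60 to -0.01, limma adjusted p 0.9997) and -0.91 ± 0.41 for hDMD (interval -1.88 to 0.07, limma adjusted p 1). Neither group overlapped wild-type, a separation seen in 8.39% of all probe sets for hDMD x mdx and in 28.2% for the single hDMD mouse. For hDMD x mdx x utrn-/- the value was -0.15 ± 0.41. The human gene effect with utrophin loss minus that without was 0.48 ± 0.58 for Ckb, with an interval of -0.90 to 1.87, so the 2 effects were not shown to differ. These comparisons share the wild-type or the mdx mice and are not independent of each other.

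**Figure D2:**
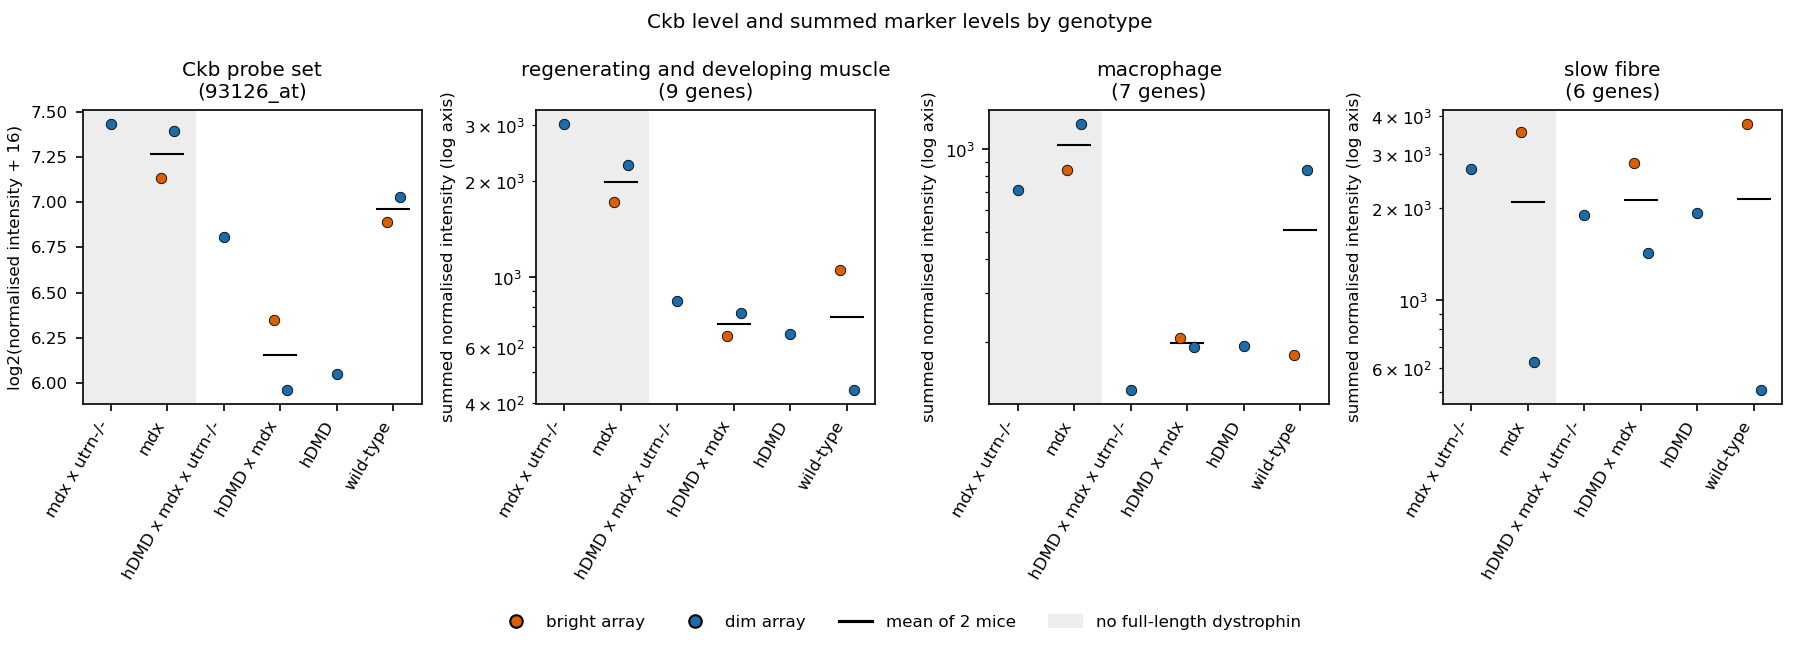
Ckb level as log2(normalised intensity + 16) and, on log axes, the summed normalised intensities of the regenerating muscle, macrophage and slow fibre markers on the 9 arrays, by genotype. The regenerating muscle sum was 1720 to 3029 on the 3 arrays without dystrophin and 439 to 1050 on the 6 with it, and the slow fibre sum ranged widely within both.

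All 9 regenerating and developing muscle markers were higher without dystrophin, with a median difference of 1.03, against -0.01 over all probe sets. Myl4, the atrial and embryonic light chain of myosin, rose by 2.44 ± 0.26 (limma adjusted p 0.0034), and Myh3, the embryonic myosin heavy chain, rose by 2.24 ± 0.30 (limma adjusted p 0.0204). The summed level of the list was 1720 to 3029 without dystrophin and 439 to 1050 with it, with Myh3 at the floor in wild-type 2 and Igf2 at the floor in hDMD x mdx x utrn-/-. The part of these markers in the Ckb difference was not tested.

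Macrophage markers were higher without dystrophin in 6 of the 6 tested, none of which passed, and the sum over 7 genes was 713 to 1238 without dystrophin and 133 to 841 with it. The 841 was that of wild-type 2, which also had the highest Ckb level among mice with dystrophin, while wild-type 1 had a macrophage sum of 179 and a Ckb level of 6.89. Lyz2 was at the floor in hDMD x mdx x utrn-/-, and Adgre1, a defining macrophage marker, was at the floor in mdx 2, hDMD x mdx 1 and wild-type 2. The smooth muscle and vessel wall sum was 407 to 666 without dystrophin and 276 to 569 with it, and 2 of the 6 markers were higher without dystrophin. The nerve and Schwann cell sum, over 4 genes, was 99.7 to 196 without dystrophin and 75.9 to 288 with it. Of these genes 1 was at the floor in each of mdx 1 (Mbp), mdx x utrn-/-, hDMD x mdx 2 and hDMD x mdx x utrn-/-. The part of these cell types in the Ckb difference was not tested.

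Ckm, the M form, was read by 2 probe sets that differ widely in signal. Probe set 1, of a class whose probes may match related sequences, read 9.91 in mdx x utrn-/-, 10.41 and 9.86 in mdx 1 and 2, 10.83 in hDMD x mdx x utrn-/-, 10.00 and 10.61 in hDMD x mdx 1 and 2, 10.61 in hDMD, and 10.31 and 10.46 in wild-type 1 and 2. The 2 lowest levels came from mice without dystrophin, but mdx 1 lay among the mice with it and the groups overlapped. The level averaged 10.06 ± 0.30 without dystrophin (SD, n = 3) and 10.47 ± 0.29 with it (SD, n = 6). The difference was -0.41 ± 0.24 with an interval of -0.94 to 0.11, and its limma adjusted p was 0.999. Within the bright arrays it was -0.30 and within the dim ones -0.47.

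By genotype Ckm stood highest in hDMD x mdx x utrn-/- and lowest in mdx x utrn-/-, with hDMD, wild-type, hDMD x mdx and mdx between them in that order. No neighbouring gap exceeded 0.23, which is below the within-genotype SD of 0.34. That SD includes the shift between bright and dim arrays and is no measure of the spread between mice alone. The human gene on the 2 deficient backgrounds gave 0.42 ± 0.33 (interval -0.35 to 1.20), of the opposite sign to Ckb. Bright arrays were lower than dim ones by a mean of 0.41.

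Ckm probe set 2 lay at or near the floor and was not tested. It read 4.27 in mdx x utrn-/-, 4.65 and 4.31 in mdx 1 and 2, 5.23 in hDMD x mdx x utrn-/-, 4 and 4.23 in hDMD x mdx 1 and 2, 5.00 in hDMD, and 4 and 4.34 in wild-type 1 and 2. For scale, the highest of 15 bacterial control probe sets outside the hybridisation spike-in set reached 5.15, and 8 of the 9 readings lay below that. The median level of these controls was 4.02. The 2 probe sets differ widely in level. Their Pearson r over the 9 arrays was 0.66, and 0.47 after subtraction of the mean of the bright and of the dim arrays. With probe set 2 so near the floor, the differences above are those of probe set 1 alone.

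Ckmt2, the sarcomeric mitochondrial form, was brightest on its probe set 1. It read 9.45 in mdx x utrn-/-, 9.82 and 10.57 in mdx 1 and 2, 9.76 in hDMD x mdx x utrn-/-, 10.65 and 9.99 in hDMD x mdx 1 and 2, 10.14 in hDMD, and 10.48 and 10.02 in wild-type 1 and 2. The 3 bright arrays were the 3 highest, with a mean 0.70 above that of the dim arrays, and the 2 mice without utrophin were the 2 lowest. Probe set 2, of the class whose probes may match related sequences, read 5.91 in mdx x utrn-/-, 6.74 and 8.04 in mdx 1 and 2, 6.69 in hDMD x mdx x utrn-/-, 8.10 and 6.83 in hDMD x mdx 1 and 2, 7.09 in hDMD, and 7.98 and 6.80 in wild-type 1 and 2. Its bright arrays averaged 1.36 above its dim ones, and again both mice without utrophin were lowest.

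Between arrays without and with dystrophin, Ckmt2 differed by -0.23 ± 0.29 (interval -0.86 to 0.41) on probe set 1 and by -0.35 ± 0.46 (interval -1.36 to 0.67) on probe set 2, with a limma adjusted p of 0.9995 for both. Within the bright arrays both differences were 0.01, and within the dim ones -0.34 and -0.52. Without the mdx x utrn-/- array they were 0.02 and 0.15, so the sign rested on that mouse. The within-genotype SD of probe set 1 was 0.45, which includes the mean shift of 0.70 between bright and dim arrays. No neighbouring genotypes differed by more than this SD, the widest gap being the 0.38 between hDMD and hDMD x mdx x utrn-/-. With that shift in it, the SD is no measure of the spread between mice alone.

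On the mdx backgrounds, mice without utrophin averaged 9.61 ± 0.22 on probe set 1 (SD, n = 2) and mice with it 10.26 ± 0.42 (SD, n = 4), and the additive model gave -0.65 ± 0.35 (interval -1.48 to 0.17, limma adjusted p 0.740). On probe set 2 the model gave -1.13 ± 0.50 (interval -2.30 to 0.05, limma adjusted p 0.740, unadjusted 0.0584). Both probe sets had no overlap, as did 9.19% of all probe sets in that direction. Both mice without utrophin were on dim arrays, and within the dim arrays the differences were -0.30 and -0.48. These 2 mice, of 5 and 9 weeks, were also the youngest of the 6 compared.

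Brightness came with other measures. The ratio of 3′ to 5′ signal for actin, a measure of RNA integrity and of labelling, was 1.20 to 1.87 on bright arrays and 0.669 to 0.908 on dim ones. Summed slow fibre markers, of muscle rich in mitochondria, were 2812 to 3772 on the bright arrays and 506 to 2681 on the dim ones. By class the slow fibre sum was 626 to 3538 without dystrophin and 506 to 3772 with it, with none of the 6 markers at the floor. The part of array brightness, RNA integrity and slow fibres in the Ckmt2 levels was not tested.

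Ckmt2 probe set 3 was at the floor on 4 arrays and was not tested. It read 4.17 in mdx x utrn-/-, 4 and 4.12 in mdx 1 and 2, 5.21 in hDMD x mdx x utrn-/-, 4.05 and 4.09 in hDMD x mdx 1 and 2, and 4 in hDMD and in both wild-type mice. Only hDMD x mdx x utrn-/-, whose array had the lowest median intensity, stood away from the floor.

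Ak1, on its single probe set, read 9.19 in mdx x utrn-/-, 9.88 and 10.24 in mdx 1 and 2, 10.13 in hDMD x mdx x utrn-/-, 10.28 and 10.09 in hDMD x mdx 1 and 2, 10.08 in hDMD, and 10.42 and 9.57 in wild-type 1 and 2. The mdx x utrn-/- array was the lowest and the male wild-type next, and the groups without and with dystrophin overlapped. The difference between them was -0.33 ± 0.27 (interval -0.92 to 0.27, limma adjusted p 0.9995). Without the mdx x utrn-/- array it was -0.03. Bright arrays averaged 0.49 above dim ones.

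In the order of genotypes, Ak1 stood at 10.19 in hDMD x mdx, 10.13 in hDMD x mdx x utrn-/-, 10.08 in hDMD, 10.06 in mdx, 9.99 in wild-type and 9.19 in mdx x utrn-/-. The first 5 lay within gaps of at most 0.07. The gap of 0.81 below them was 2.11 times the within-genotype SD of 0.38, which includes the shift between bright and dim arrays. That gap rests on the single mdx x utrn-/- mouse. The 2 wild-type arrays, a bright one from a female and a dim one from a male, differed by more than any 2 of those 5 means.

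**Figure D3:**
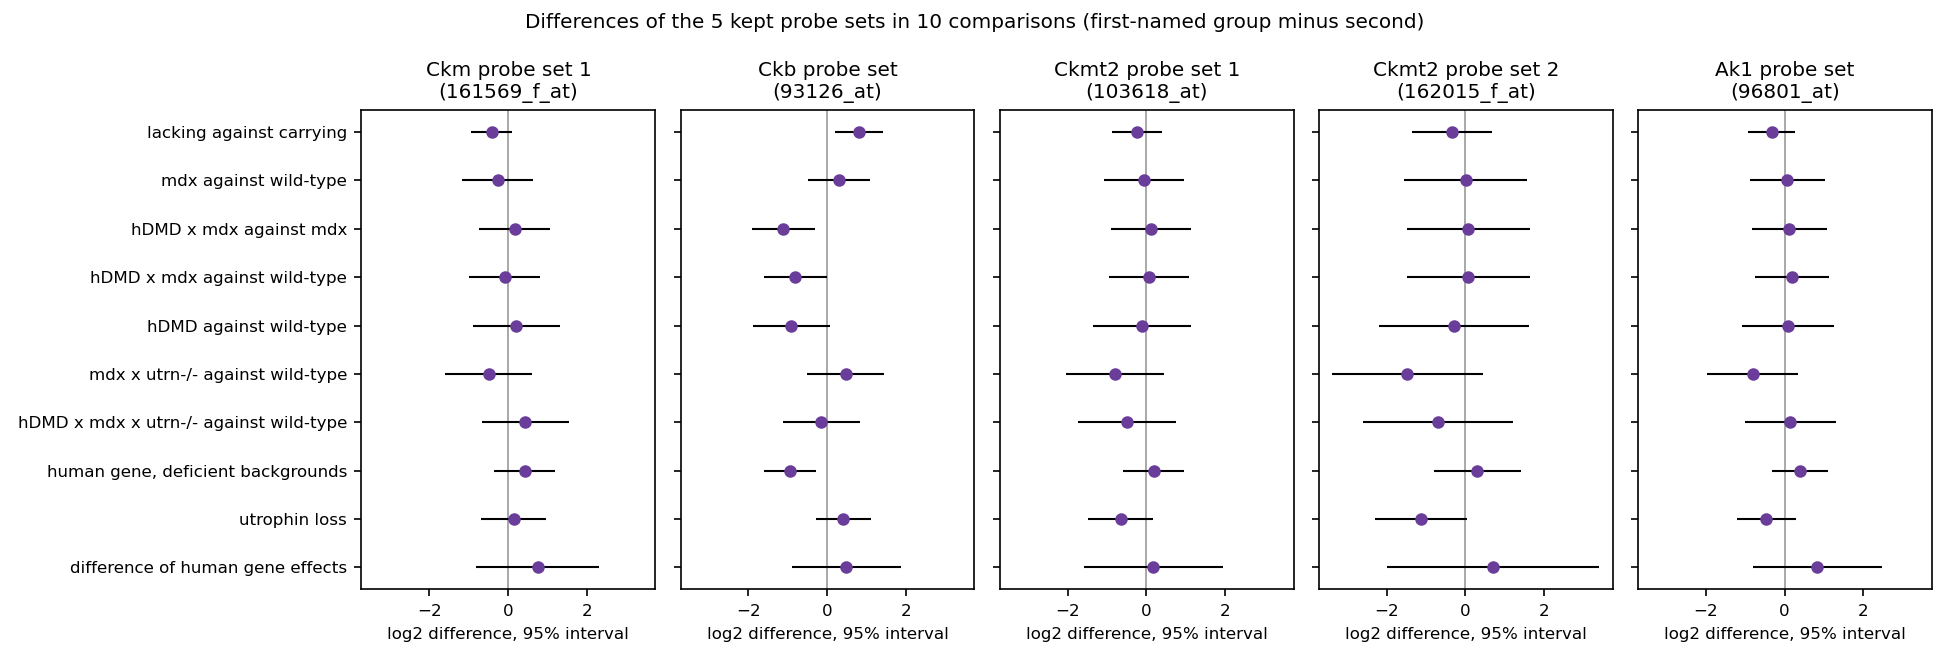
Log2 difference of the 5 tested probe sets in the 10 comparisons, as points with 95% intervals, the group named first minus the other. Intervals that leave out 0 occur for Ckb alone, in the class, hDMD x mdx against mdx, hDMD x mdx against wild-type and human gene comparisons, and none of these passed after adjustment.

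The mdx x utrn-/- mouse, which lacks both proteins and was the youngest, was set against wild-type as a single array. Ckb was 0.47 ± 0.41 higher (interval -0.50 to 1.45). The difference was -0.48 ± 0.47 for Ckm, -0.80 ± 0.53 and -1.47 ± 0.81 for the 2 Ckmt2 probe sets, and -0.81 ± 0.49 for Ak1, each with a limma adjusted p of 0.987. Thus 4 of the 5 probe sets lay below both wild-type arrays, as did 31.9% of all probe sets, and 1 lay above both, as did 31.6%. Against the dim wild-type array alone the differences were 0.41 for Ckb, -0.56 for Ckm, -0.57 and -0.88 for Ckmt2 and -0.38 for Ak1.

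In hDMD x mdx x utrn-/-, which carries the human gene on that background, Ckm differed from wild-type by 0.44 ± 0.47, Ckmt2 by -0.49 ± 0.53 and -0.70 ± 0.81, and Ak1 by 0.14 ± 0.49. Ckm lay above both wild-type arrays, as did 35.2% of all probe sets, and Ckb and both Ckmt2 probe sets lay below both, as did 35.3%. Between the 2 groups with the human gene and no utrophin loss, hDMD x mdx and hDMD, and wild-type, the differences of Ckm, Ckmt2 and Ak1 lay between -0.30 and 0.22. Ckm in hDMD was above both wild-type arrays, as were 32.1% of all probe sets.

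Other genes of high-energy phosphate metabolism were read from 5 lists of 29 genes, of which 19 were measured and 17 tested. None passed in any comparison (limma, adjusted p under 0.05). Between arrays without and with dystrophin 7 were higher and 10 lower, with a median difference of -0.09 and 1 gene at an unadjusted p under 0.05, while over all probe sets 51.7% were lower. The gene at that p was Ampd3, an AMP deaminase of the purine nucleotide cycle, at 5.39 without dystrophin and 4.51 with it, a difference of 0.88 ± 0.32 (limma adjusted p 0.767). The carrying level is within the range of the bacterial controls.

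Of the genes of creatine supply, Gatm, which makes the creatine precursor guanidinoacetate, differed by 0.55 ± 0.33 (limma adjusted p 0.999) between arrays without and with dystrophin, and Gamt, which methylates it to creatine, by 0.48 ± 0.25 (limma adjusted p 0.984). Slc6a8, the creatine transporter through which muscle takes up creatine, differed by -0.02 ± 0.31. Against wild-type, mdx muscle stood at 1.01 ± 0.43 for Gatm and 0.84 ± 0.35 for Gamt, with a limma adjusted p of 0.9997 for both. The mdx x utrn-/- mouse did not share these differences, at -0.17 ± 0.53 for Gatm and 0.08 ± 0.43 for Gamt against wild-type. The 3 genes all had a negative difference with utrophin loss: -0.92 ± 0.30 for Slc6a8, -0.80 ± 0.31 for Gatm and -0.18 ± 0.37 for Gamt (limma adjusted p 0.740 for Slc6a8 and Gatm).

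With utrophin loss, 15 of the 17 tested genes were lower and 2 higher, with a median of -0.27 and 2 genes at an unadjusted p under 0.05, where 51.8% of all probe sets were lower. As for Ckmt2, both mice without utrophin were on dim arrays and were the youngest of those compared. Some of the lower genes averaged within the range of the bacterial controls in these mice. They were Ak4 (4.37), Ampd3 (4.44), Prkag1 (4.53), Prkab1 (4.58), Slc25a3 (4.64) and Ak3 (4.81). The count of lower genes thus rests in part on readings near the floor. Among the nucleotide carriers, Slc25a4, the muscle ADP/ATP carrier that hands ATP to mitochondrial creatine kinase, differed by -0.01 ± 0.29 with utrophin loss and by -0.09 ± 0.20 without dystrophin. The adenylate kinases of the mitochondrion, Ak3 and Ak4, differed by -0.40 ± 0.36 and -0.27 ± 0.29 without dystrophin. Ak4, at 4.29 without dystrophin and 4.56 with it, lay within the range of the bacterial controls. Ak3 was within that range without dystrophin, at 4.98, and stood at 5.38 with it. Ckmt1, the other mitochondrial creatine kinase, was near the floor and not tested.

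**Figure D4:**
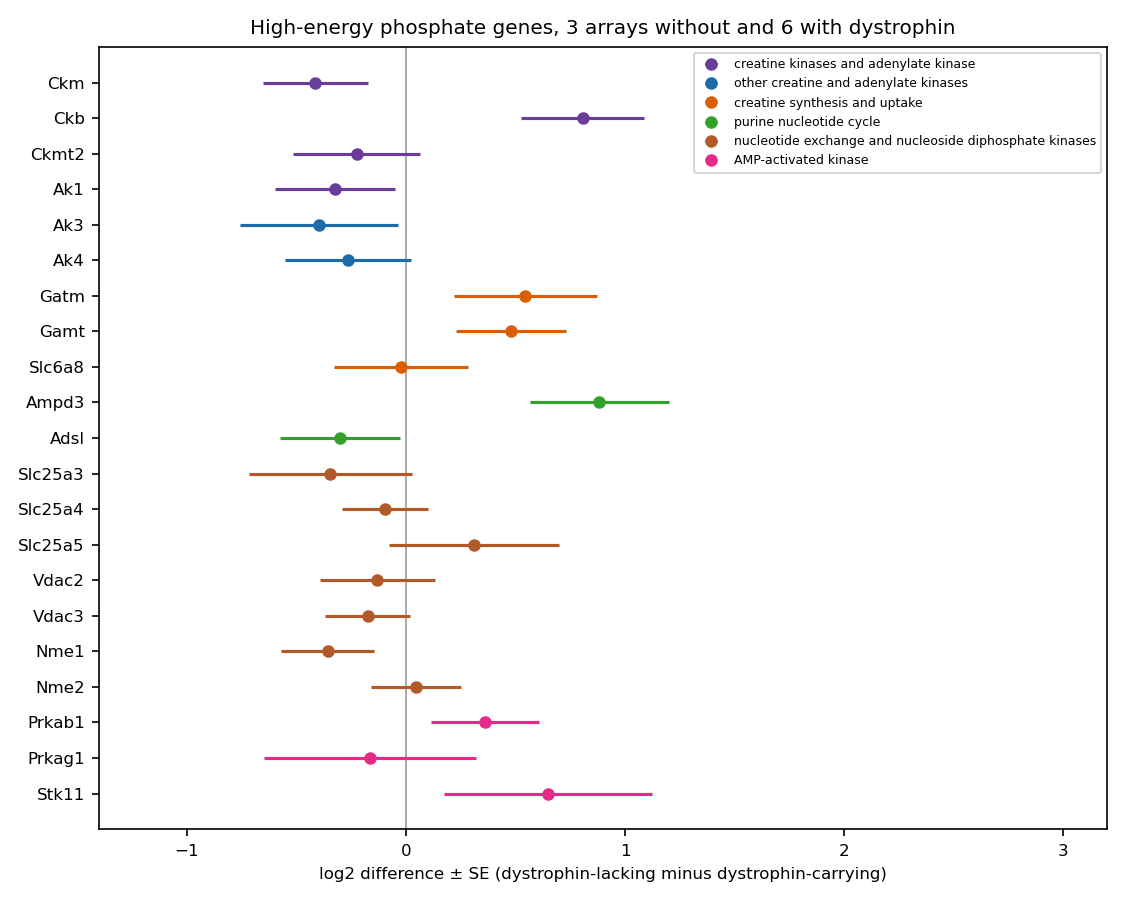
Log2 difference with its SE, arrays without minus arrays with dystrophin, for the 4 genes and the 17 tested genes of the 5 lists, in colours by list. Ckb at 0.81 and Ampd3 at 0.88 lie farthest to the right, and Ckm at -0.41 lies farthest to the left.

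The genes whose levels ran most like each member were found over the 9 arrays, after subtraction of the mean of the bright and of the dim arrays. For Ckb they were Tgfbi (r 0.95), a secreted matrix protein, Smad1 (r 0.95), a signal transducer of bone morphogenetic proteins, and Il6ra (r 0.94), the interleukin-6 receptor. For Ckm they were Smyd1 (r 0.97), a methyltransferase of striated muscle, Pcmt1 (r 0.97) and Ccdc6 (r 0.95). Ckmt2 ran most like Pde7a (r 0.99), Xrcc5 (r 0.99) and Eps15 (r 0.97), and Ak1 most like Elob (r 0.99), Drap1 (r 0.98) and Mageb3 (r 0.97). These are the 3 highest for each member among 6698 probe sets compared over only 9 arrays, which share their normalisation. Between 17 and 73 probe sets per member had an r over 0.9, and without the subtraction the r of these 12 genes ran from 0.04 to 0.99. They are descriptions with no test.

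**Figure D5:**
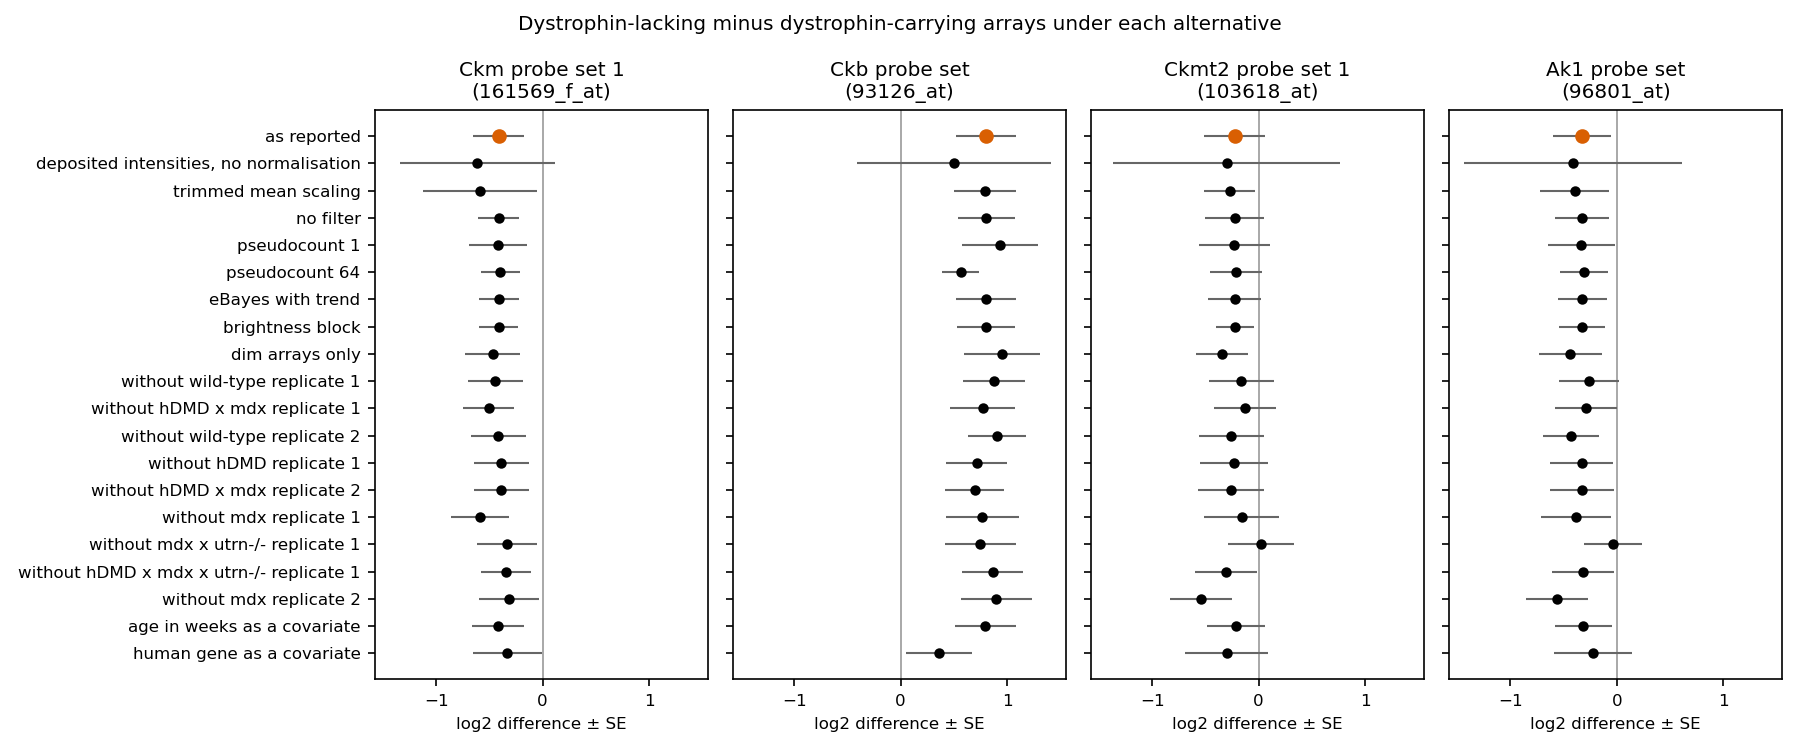
Difference between arrays without and with dystrophin, with its SE, as reported and under each of 19 alternatives, for Ckb, Ckm, Ckmt2 (probe set 1) and Ak1. Ckb stays above 0 and Ckm below 0 in every row, Ak1 comes to -0.03 and Ckmt2 to 0.02 without the mdx x utrn-/- array.

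Across these alternatives the Ckb difference between arrays without and with dystrophin ran from 0.36 to 0.95 and kept its sign in 19 of 19, and the lowest adjusted p was 0.371, with array brightness as a block. The Ckm difference also kept its sign in 19 of 19. With age as a covariate the Ckb value was 0.80 ± 0.28. As ages differed between the genotypes within each class, this value does not separate age from genotype.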

How the data were processed

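Each of the 9 mice was hybridised to its own array. The deposited files hold 1 linear intensity per probe set and array, 19.4% to 29.9% of them at or below 0 per array. How the authors computed them (expression measure, software, scaling) is not given in the sources used here. RNA came from frozen muscle (Trizol, then RNeasy columns), per the labels' protocols.

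Intensities were quantile normalised over 12488 probe sets, values below 0 were set to 0, 16 was added and log2 taken. Of 12422 probe sets other than controls, 7453 with a mean above the 40th percentile were tested in limma 3.58.1 (R 4.3.3), with Benjamini-Hochberg adjustment over all of them and a threshold of 0.05. Genotype contrasts shared 1 spread on 3 residual degrees of freedom, and single mice were taken to vary as much as the paired ones. The class comparison had 7 and the additive model of 6 arrays had 3. The code was tested on simulated data.

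Gene names came from the platform annotation, updated through Entrez identifiers: 10833 probe sets had 1 symbol, 396 several and 1193 none listed. The members and lists were chosen with earlier results of these data known. All members and listed genes could be named, each listed gene by its brightest probe set, plus the 3 genes most like each member. Alternatives were deposited values, trimmed mean scaling, no filter, pseudocounts of 1 and 64, a trended prior, brightness as a block, dim arrays only, covariates, only the compared arrays, and each mouse left out. The number of arrays limits the precision.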

Additional observations from a re-analysis of the deposited data

Results flagged for a closer look

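Probe set 3 of Ckmt2, the dimmest of that gene, read 5.21 in hDMD x mdx x utrn-/-, far from the other 5 arrays with dystrophin, which lay between 4 and 4.09. The gap to the nearest of them was 0.926 of the group's range, above Dixon's critical value of 0.625 for 6 samples. A total of 7 probe sets were examined in this way, and chance alone can produce such a flag now and then. The probe set was at or near the floor on every other array and was not tested, and the deposited intensity behind the high value was 2.63, on the array with the lowest median intensity.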

How the results depend on the processing

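No member probe set passed in any of the 10 comparisons as reported, nor in any of the 166 alternatives run over them, among them each mouse left out in turn (0 passing in every case). Of 865 recomputed differences, 59 had the other sign; none was of a value that passed. For Ckb the other sign appeared only with the deposited intensities without normalisation: -0.83 for mdx x utrn-/- against wild-type, -1.39 for utrophin loss and -0.65 for the difference of human gene effects. That setting moved the median of all probe sets by -0.76, -1.20 and -0.76 in these comparisons, so the array level is part of those values. The count of all probe sets passing between arrays without and with dystrophin was 9 as reported and 0 to 18 under the alternatives, lowest with the deposited intensities and highest without wild-type 1. Against wild-type it was 0 as reported and 12 with no filter for mdx x utrn-/-, and 3 for hDMD x mdx x utrn-/-. With brightness as a block it was 4 for the human gene and 2 for the difference of its effects. No paired analysis was run, because each array came from a different mouse and the labels name no pairing between them. Signal limits the readings of Ckm probe set 2, Ckmt2 probe set 3 and Ampd3, which lay near the floor. Among the other tested genes of the lists, Ak4, Slc25a3, Prkab1 and Prkag1 had mean levels below 5.15 both without and with dystrophin. That is the highest level of the bacterial controls.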
